A study of Homo sapiens
Mus musculus with 8 samples.

Results

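Receptors of natural killer (NK) cells were followed in the human T cell lines TALL-104 and Jurkat through 8 genes: KLRB1, KLRC1, KLRD1, KLRK1, NCR3, NCAM1, CD244 and FCGR3A. They were named by symbol, as known receptors or surface markers of NK cells, from the 32738 human genes of a combined reference of 60736 human and mouse genes. All 8 were found in the deposited gene list (Ensembl identifiers ENSG00000111796, ENSG00000134545, ENSG00000134539, ENSG00000213809, ENSG00000204475, ENSG00000149294, ENSG00000122223 and ENSG00000203747, in the order above).

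The study benchmarked single-cell RNA-seq kits on an equal mixture of 4 lymphocyte lines, of which TALL-104 (TALL104 in the labels) and Jurkat are human, and IVA12 and EL4 come from the mouse. Chromium kits of 3 kinds were used (3′ v3, 3′ v2 and 5′ v1), each named for the transcript end it reads, and every captured molecule received a unique molecular identifier (UMI). The labels list 8 libraries, of which 7 were analysed: 1 of 3′ v2 (replicate 2), 2 of 5′ v1 and 4 of 3′ v3, with 24790710 to 251164949 UMIs each. Every library holds both lines, so each comparison of lines was made within libraries.

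TALL-104 is a CD8+ T line of small cells that was grown with the cytokine IL-2, and Jurkat is a CD4+ T line that was grown without it, so line and culture cannot be told apart. The labels name no treatment, and each is a single line, not a sample of CD8+ or CD4+ T cells. A barcode was counted as human when it had at least 1000 UMIs and over 80% of them were human, which 11845 of 32377 barcodes of that depth met. It was assigned to TALL-104 when NKG7, CST7 and CD8A together made up at least 0.1% of its human UMIs, and to Jurkat when they made up under 0.02%. This gave 2746 TALL-104 and 8074 Jurkat barcodes, and 1025 human barcodes of neither. None of the 8 receptor genes took part in the assignment.

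The assigned barcodes carried the other markers of their lines, with an exception. A list of 8 cytotoxic and CD8 T cell genes (among them PRF1, GZMB, GNLY and CCL5) summed to between 2845 and 9319 CPM (UMIs of a gene per 1e6 human UMIs, summed over the barcodes of a line in a library) in TALL-104 and to between 35.4 and 123 in Jurkat. Within it CD8B, which codes for the partner chain of CD8A, went the other way. It had 10 of 6102333 human UMIs in TALL-104 and 939 of 143900889 in Jurkat. CCL5 made up much of the TALL-104 sum, with a mean of 4423 CPM beside a median of 6620 for the whole list. The 7 measured genes of a Jurkat list (among them CD4, CD28, RAG1 and LEF1) summed to between 1560 and 2897 CPM in Jurkat and to between 43.4 and 233 in TALL-104. A 6-gene list of NK cells, which includes FCGR3A, summed to between 379 and 664 CPM in TALL-104 and to at most 1.94 in Jurkat. In TALL-104 most of this sum was FCER1G (381 CPM) and TYROBP (68.5 CPM), which code for adaptor chains. NCR1 was at 27.7 CPM, SH2D1B and FCGR3A had 12 and 1 UMIs, and KLRF1 was at 0 in both lines. The sum thus describes mainly the adaptor genes. CD79A, a signalling chain of the B cell receptor, was found in both lines, at 30.0 ± 16.5 CPM in TALL-104 (189 UMIs) and 41.2 ± 14.1 in Jurkat (6135 UMIs; SD, n = 7). Genes of myeloid cells summed to at most 1.49 CPM in TALL-104, with LYZ, S100A8 and S100A9 at 0.

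TALL-104 barcodes were few and shallow. The libraries held 30 to 1101 of them with a median of 1800 to 2686 human UMIs, against 288 to 3038 Jurkat barcodes with a median of 9729.5 to 18448. For this reason levels are given as CPM, and shares of barcodes were also taken after cells had been thinned at random to 1000 human UMIs. Cells with fewer human UMIs were left out of the thinned shares. Libraries shared at most 4 human barcode sequences with each other. Replicate libraries drew on the same lines and in part on the same cell mixture, so p-values measure only the spread between library sums, which may be technical.

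NK cells and some cytotoxic T cells weigh activating against inhibitory signals from surface receptors. Receptors built like C-type lectins (KLRB1, KLRD1, KLRC1, KLRK1) sit together in the NK gene complex, while others have immunoglobulin folds (NCR3, NCAM1, FCGR3A, CD244). Most activating receptors have no signalling tail of their own and pass their signal through adaptor chains such as TYROBP, HCST, FCER1G and CD247.

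KLRB1 (CD161), a lectin-type receptor that binds CLEC2D, was the most abundant of the 8 in TALL-104. Its level there was 431 CPM in the 3′ v2 library, 1799 and 1778 in the 5′ v1 libraries, and 2122, 1161, 2052 and 1190 in 3′ v3 replicates 1 to 4. In Jurkat it was 1.52 CPM in 3′ v2, 0 and 0.248 in 5′ v1, and 3.48, 6.78, 4.57 and 10.4 in 3′ v3. The lines did not overlap in any library. In the 5 libraries with over 3 Jurkat UMIs of the gene, the TALL-104 level was 114- to 609-fold higher, and in 5′ v1 replicate 1, where Jurkat had 0 UMIs, it was at least 15773-fold higher against a limit of 3 Jurkat UMIs.

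KLRC1 (NKG2A) and KLRD1 (CD94) code for the partner chains of an inhibitory receptor for HLA-E, and both were low. KLRC1 had 6 UMIs in TALL-104 barcodes of 3′ v2, 3 and 0 in 5′ v1, and 38, 14, 55 and 60 in 3′ v3 replicates 1 to 4, or 25.6 ± 16.5 CPM (SD, n = 7 libraries). In Jurkat it had 4 UMIs in all, 2 each in 3′ v3 replicates 1 and 3. Against a limit of 3 Jurkat UMIs it was at least 124-fold higher in TALL-104 in 3′ v3 replicate 4, at least 65.5-fold in 3′ v2 and at least 23.6-fold in 3′ v3 replicate 2. The counting error of the TALL-104 UMIs is left out of these limits. The partner KLRD1 was lower still in TALL-104, with 0 UMIs in 3′ v2, 1 and 3 in 5′ v1, and 8, 6, 17 and 10 in 3′ v3, or 9.54 ± 10.5 CPM (SD, n = 7). This mean leans on 5′ v1 replicate 2, at 32.5 CPM on 3 UMIs. Over the 3′ v3 libraries alone it was 7.38 ± 1.17 CPM (SD, n = 4). Jurkat had 19 KLRD1 UMIs, of which 13 were in 3′ v3 replicate 3. KLRD1 was 46.6-fold higher in CPM in TALL-104 in 3′ v3 replicate 1 and 34.5-fold higher in replicate 3, on 4 and 13 Jurkat UMIs. Per barcode it was 4.74- and 3.61-fold higher there.

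KLRK1 (NKG2D), the activating receptor for MICA, MICB and the ULBP proteins, was at the edge of detection. TALL-104 had 17 UMIs in all, 3 in 5′ v1 replicate 1 and 1, 2, 6 and 5 in the 3′ v3 libraries, and none in the other two libraries. Jurkat had 0 UMIs among 143900889 human UMIs. Against a limit of 3 Jurkat UMIs, KLRK1 was at least 52.8-fold higher in TALL-104 in 3′ v3 replicate 3 and at least 10.4-fold higher in replicate 4. These limits leave out the counting error of the 6 and 5 TALL-104 UMIs. The RefSeq gene table has KLRK1 overlapping the read-through gene KLRC4-KLRK1, and KLRC1 has near-identical neighbours in KLRC2 and KLRC3, so counts of both depend on how shared reads were assigned.

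NCR3 (NKp30), an activating receptor that binds BAG6 and NCR3LG1, was clear in TALL-104 and low in Jurkat. Its TALL-104 level was 182 CPM in 3′ v2, 94.4 and 54.2 in 5′ v1, and 91.4, 151, 95.8 and 127 in 3′ v3. In Jurkat it was 0.760 in 3′ v2, 1.41 and 0.743 in 5′ v1, and 1.39, 0.590, 1.35 and 1.08 in 3′ v3. The lines were far apart in every library, by 65.9- to 118-fold in CPM in the 5 libraries with over 3 Jurkat UMIs. Per barcode the gap was 6.71- to 27.5-fold in these libraries. NCR3 overlaps LST1 in the RefSeq gene table. LST1 was itself higher in TALL-104, with a log2 fold change of 2.08 (edgeR quasi-likelihood test, adjusted p = 1.91e-10).

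NCAM1 (CD56), the adhesion molecule used to define NK cells, ran at 74.6 CPM in TALL-104 of 3′ v2, at 113 and 119 in 5′ v1, and at 50.5, 169, 54.8 and 203 in 3′ v3. Jurkat stood at 0.253 in 3′ v2, 0.190 and 0.165 in 5′ v1, and 0.0338, 0.885, 0.320 and 0.862 in 3′ v3. All TALL-104 values were above all Jurkat values, by 171- to 596-fold in the 3 libraries with over 3 Jurkat UMIs, and the TALL-104 values of 3′ v3 fell into a low pair (replicates 1 and 3) and a high pair (replicates 2 and 4). FCGR3A (CD16a), the Fc receptor through which NK cells bind antibody-coated targets, had 1 UMI in TALL-104 (3′ v3 replicate 2) and 1 in Jurkat (3′ v3 replicate 3). No difference of FCGR3A was detectable at this depth: the UMI in TALL-104 was in 1 of 244 barcodes (0.410%, exact 95% binomial interval 0.0104% to 2.26%), and the libraries with 0 UMIs allow a share of barcodes with a UMI, not of cells expressing the gene, of up to 0.272% (1101 barcodes) to 10.0% (30 barcodes). It too has a near-identical copy, FCGR3B.

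CD244 (2B4), a SLAM family receptor that binds CD48, was the member with the smallest gap between the lines among those with over 2 UMIs in each. It had 1 UMI in TALL-104 of 3′ v2, 4 and 3 in 5′ v1, and 19, 18, 28 and 27 in 3′ v3. These made 8.29 CPM in 3′ v2, 18.9 and 32.5 in 5′ v1, and 15.0, 26.9, 12.5 and 18.1 in 3′ v3. In Jurkat, with 471 UMIs in all, the level was 1.77 in 3′ v2, 3.04 and 3.55 in 5′ v1, and 3.15, 2.06, 3.64 and 2.69 in 3′ v3. In CPM it was higher in TALL-104 in every library, by 3.42- to 13.0-fold in the 5 libraries with over 3 UMIs in both lines.

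**Figure D1:**
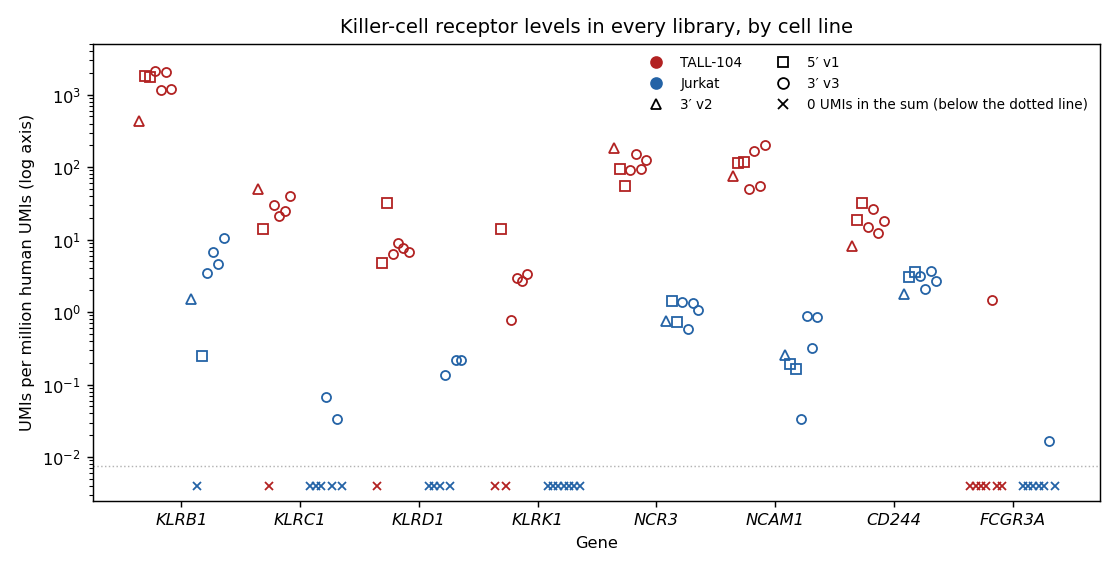
Level of each receptor gene (CPM, UMIs scaled to the human UMIs, log axis) in TALL-104 (red) and Jurkat (blue), 1 point per library, with the marker giving the kit and crosses below the dotted line for sums of 0 UMIs. KLRB1 reached 431 to 2122 in TALL-104 and at most 10.4 in Jurkat, CD244 had the narrowest gap, and FCGR3A held 1 UMI in each line.

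Levels were fitted over all kits with edgeR's quasi-likelihood test, with the library as a block (both lines of a library are a pair). Of the 8 members, 4 passed the filter on low counts (KLRB1, NCR3, NCAM1 and CD244), and the other 4 were too sparse. All 4 were called higher in TALL-104 at an adjusted p under 0.05, in a comparison where 31.0% of the 10268 tested genes were called higher and 34.1% lower. A gene at or near 0 in Jurkat could enter the test only through TALL-104, so this count says little by itself. The log2 fold change was 9.23 ± 0.56 for KLRB1 (SE, adjusted p = 1.35e-13), 8.30 ± 0.25 for NCAM1 (adjusted p = 1.53e-19), 6.52 ± 0.20 for NCR3 (adjusted p = 1.77e-19) and 2.63 ± 0.26 for CD244 (adjusted p = 2.41e-09).

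The median over all tested genes was -0.05, and -0.18 without scaling factors, which is small beside these values. In a fit without the filter, where 16.8% of 22603 genes were called higher, KLRC1 (edgeR adjusted p = 1.81e-46), KLRD1 (7.58e-19) and KLRK1 (6.50e-13) were also called higher in TALL-104. FCGR3A was not (adjusted p = 0.379). The fitted log2 fold change of KLRD1 was 5.73 ± 0.53 (SE), on 19 Jurkat UMIs. Those of KLRC1, KLRK1 and FCGR3A, with 4, 0 and 1 Jurkat UMIs, depend on the prior count and are not given.

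As a background, the same genes were counted in 18185 barcodes with over 80% mouse UMIs, since mouse cells lack these human genes. They had a median of 7 to 252 human UMIs per library. Their human UMIs can be stray RNA or come from a human cell in the same droplet, which was not tested, and they were clumped: in 3′ v3 replicate 4, 87 of 2648 mouse barcodes held all 414 KLRB1 UMIs. KLRB1 had 62.3 UMIs per 1000 Jurkat barcodes over all libraries and 59.4 per 1000 mouse barcodes, against 3806 in TALL-104, and Jurkat was above the mouse barcodes in 5 of 7 libraries. NCAM1 had 4.83 per 1000 in Jurkat, 5.66 in mouse barcodes and 236 in TALL-104, with Jurkat above the mouse barcodes in 6 of 7 libraries. The order of Jurkat and mouse barcodes in these pooled values rests on single libraries. Without 3′ v3 replicate 4, which held 60 of the NCAM1 UMIs in mouse barcodes, NCAM1 was at 4.31 in Jurkat and 2.77 in mouse barcodes. KLRB1 turned the other way without 3′ v3 replicate 1 (61.2 in Jurkat against 63.3) or replicate 3 (46.1 against 52.7). The classes were not chosen alike: Jurkat barcodes were limited in NKG7, CST7 and CD8A, and mouse barcodes were not. Mouse barcodes are therefore no exact measure of the background in Jurkat. Counts this close to those in mouse barcodes are not read here as expression in Jurkat. Fold changes of KLRB1 and NCAM1 over Jurkat have such counts as their base, so their sizes are not read as ratios of expression.

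CD244 was well above the mouse barcodes in Jurkat. It had 58.3 UMIs per 1000 Jurkat barcodes and 1.59 per 1000 mouse barcodes. Jurkat was higher in each of the 7 libraries, with 24.1 to 71.1 per 1000 in Jurkat and 0 to 5.29 in mouse barcodes. NCR3 had 22.5 per 1000 in Jurkat, 5.39 in mouse barcodes and 244 in TALL-104. Jurkat was above the mouse barcodes in 5 of 7 libraries, but below them in 3′ v3 replicate 2 (6.87 against 10.6) and replicate 4 (11.3 against 22.3). KLRD1 had 2.35 per 1000 in Jurkat and 0.330 in mouse barcodes, on 19 and 6 UMIs, and 16.4 in TALL-104.

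Per barcode, CD244 had no common direction. There were 36.4 CD244 UMIs per 1000 TALL-104 barcodes and 58.3 per 1000 Jurkat barcodes, and the ratio of TALL-104 to Jurkat ran from 0.358 in 3′ v3 replicate 3 to 3.07 in 3′ v3 replicate 2. At full depth 4.33% ± 1.86 of TALL-104 and 4.43% ± 1.92 of Jurkat barcodes held a CD244 UMI (SD, n = 7 libraries). After thinning to 1000 human UMIs the shares were 1.55% ± 1.06 and 0.37% ± 0.23. CD244 thus took a larger share of the human UMIs in TALL-104 in every library, while its number of UMIs per barcode was higher there in some libraries and lower in others.

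**Figure D2:**
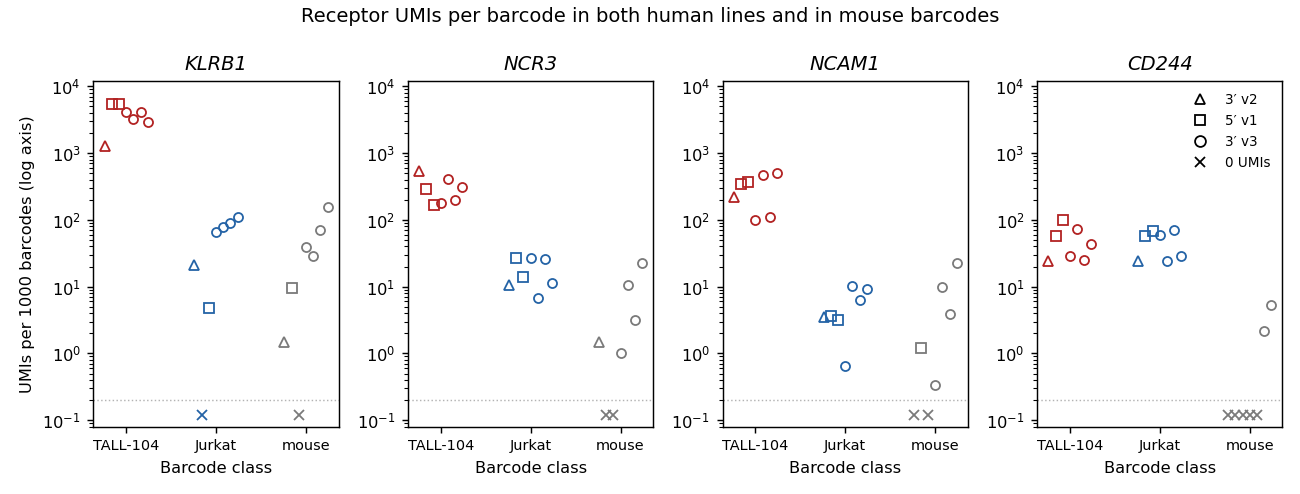
UMIs per 1000 barcodes (log axis) for KLRB1, NCR3, NCAM1 and CD244 in TALL-104, Jurkat and mouse barcodes, 1 point per library, with the marker giving the kit and crosses for 0 UMIs. KLRB1 and NCAM1 in Jurkat lie close to the mouse barcodes, whereas CD244 in Jurkat (24.1 to 71.1) lies above them and among the TALL-104 values.

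Most TALL-104 cells carried KLRB1. After thinning to 1000 human UMIs, 51.2% of TALL-104 cells in 3′ v2 held a KLRB1 UMI (exact 95% binomial interval 35.1% to 67.1%, counting error only). The share was 69.1% and 63.3% in 5′ v1, and 77.2%, 61.1%, 77.2% and 60.3% in 3′ v3 replicates 1 to 4. In Jurkat it was 0 to 2.15% after the same thinning. NCR3 was found in 10.0% ± 3.86 of thinned TALL-104 cells and NCAM1 in 10.6% ± 4.85 (SD, n = 7), with Jurkat means of 0.10% for both. KLRC1 was found in 2.09% ± 1.69, KLRD1 in 1.53% ± 2.31 and KLRK1 in 0.34% ± 0.53 of thinned TALL-104 cells. The last 2 means lean on single 5′ v1 libraries with few cells (2 of 30 for KLRD1 in replicate 2 and 1 of 68 for KLRK1 in replicate 1), and over the 3′ v3 libraries alone they were 0.65% and 0.23%.

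Within TALL-104, KLRB1 varied from cell to cell by more than counting alone gives. In the thinned cells its variance was 1.37 to 2.23 times its mean in all 5′ v1 and 3′ v3 libraries, and 0.881 times in the 41 cells of 3′ v2. In 3′ v3 replicate 3, 22.8% of 1091 cells had no KLRB1 UMI where a Poisson count of the same mean leaves 12.4%, and the highest cell had 13. The ratio was 0.966 to 1.60 for NCR3 and 1.02 to 1.52 for NCAM1 over the 7 libraries, but at their low means such a ratio is held near 1, so it does not compare their spread with that of KLRB1. Cells with NCAM1 held KLRB1 about as often as all TALL-104 cells in 3′ v3 replicates 1, 3 and 4 (74.2% against 77.2%, 80.3% against 77.2% and 60.6% against 60.3%) and less often in replicate 2 (51.4% of 35 cells against 61.1%), given as a description without a test. The other kits had 3 to 7 such cells in a library, and their shares scattered from 0 to 85.7%.

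Around the TALL-104 threshold, the members were compared just inside and just outside it, over the 3′ v3 libraries pooled. Other genes were not counted this way, so no share over all genes stands beside the values. In 3′ v3, where NKG7, CST7 and CD8A made up 0.1 to 0.15% of human UMIs, just inside the TALL-104 class (325 barcodes), KLRB1 was at 1574 CPM, NCR3 at 83.1, NCAM1 at 74.0 and CD244 at 29.6. Just outside, at 0.05 to 0.1% (340 barcodes), they were at 709, 35.3, 32.7 and 7.84 CPM. KLRC1 was at 28.5 CPM inside and 12.4 outside, and KLRD1 at 10.2 and 6.53 on 9 and 10 UMIs. KLRK1 had 0 UMIs inside and 1 outside, and FCGR3A had 0 in both. On the Jurkat side, at 0.02 to 0.05% (600 barcodes), KLRB1 was at 61.6 CPM, against 4.87 in the Jurkat class itself. Further inside the TALL-104 class, at 0.15 to 0.3% and above 0.3%, KLRB1 was at 1909 and 1636 CPM, and CD244 at 13.2 and 14.3, below its value at the threshold. KLRD1 was at 2.19 and 10.7 CPM there. Single libraries and other kits did not all show the lower values outside. NCAM1 in 3′ v3 replicate 2 had 4 UMIs of 98819 human UMIs just inside and 12 of 104454 just outside. In 3′ v2, KLRB1 was at 361 CPM just inside and 581 just outside, on 12 and 9 UMIs. In 5′ v1, CD244 had 0 UMIs just inside (5 barcodes) and 2 just outside (18 barcodes). Barcodes of neither line entered no fit.

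The lines were next compared within each kit, in 1 fit with a line effect per kit. KLRB1, NCAM1 and NCR3 were called higher in TALL-104 in all 3 kits, and CD244 in 5′ v1 and 3′ v3, while 4.31% of all tested genes were called higher in 3′ v2, 13.2% in 5′ v1 and 33.0% in 3′ v3. The single 3′ v2 library was assumed to vary like the others. For CD244, with 1 TALL-104 UMI in 3′ v2, the adjusted p there was 0.575 (edgeR). Its log2 fold change was 2.83 ± 0.80 in 5′ v1 (SE, edgeR adjusted p = 0.0125) and 2.60 ± 0.29 in 3′ v3 (adjusted p = 3.83e-07). The 5′ v1 call rested on 7 TALL-104 UMIs and was lost without either library, with a fold change that stayed close to it (3.09 without replicate 1, edgeR adjusted p = 0.159, and 2.62 without replicate 2, adjusted p = 0.104).

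For the other members, sizes are given only where both lines had over 3 UMIs in the kit. The log2 fold change of NCR3 was 6.07 ± 0.50 in 5′ v1 and 6.55 ± 0.19 in 3′ v3 (SE). That of NCAM1 was 9.19 ± 0.59 in 5′ v1 and 8.04 ± 0.25 in 3′ v3, on 7 and 31 Jurkat UMIs. For KLRB1 it was 7.86 ± 1.00 in 3′ v2, on 6 Jurkat UMIs, and 8.39 ± 0.39 in 3′ v3. The 5′ v1 fit of KLRB1 had 3 Jurkat UMIs to rest on.

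**Figure D3:**
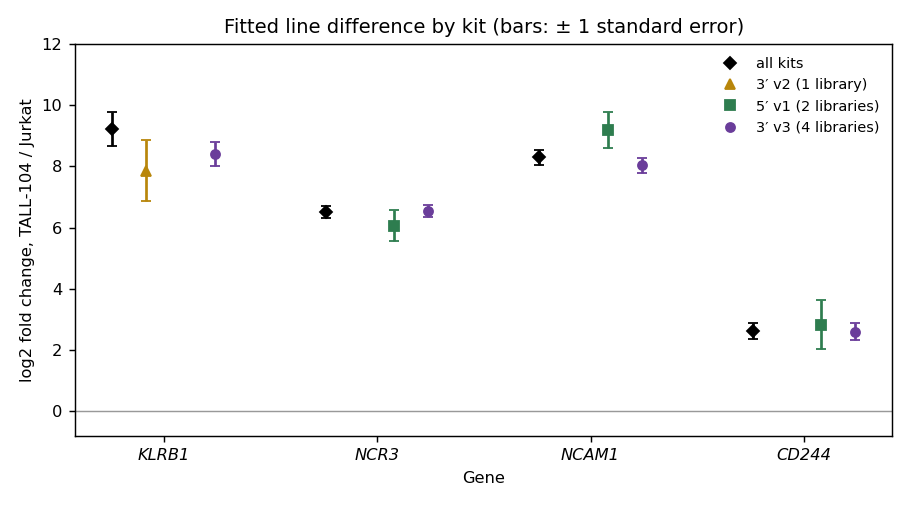
Fitted log2 fold change of TALL-104 over Jurkat (points) with 1 standard error (bars) for the 4 members that passed the filter, over all kits and within each kit, without kits where a line had 3 or fewer UMIs of the gene. CD244 (2.83 in 5′ v1 and 2.60 in 3′ v3) lies below the other members in both kits shown for it.

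A test of the kit difference itself called KLRB1 among the 4 tested members, in a comparison where 1.23% of all tested genes were called. The line difference of KLRB1 was smaller in 3′ v3 than in 5′ v1 by 5.81 ± 0.97 on the log2 scale (SE), and its edgeR adjusted p was 0.00989. Its size rests on 3 Jurkat UMIs in 5′ v1 and depends on the prior count. Without 5′ v1 replicate 1 it was -4.25 (edgeR adjusted p = 0.385) and without replicate 2 -8.87 (adjusted p = 0.140), so the direction was kept and the call lost. For NCAM1 the difference was -1.15 ± 0.69 (adjusted p = 0.455), for NCR3 0.48 ± 0.45 (adjusted p = 0.656) and for CD244 -0.23 ± 0.72 (adjusted p = 0.918).

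KLRB1 counts in Jurkat also differed between kits. In 5′ v1, KLRB1 was found in 0 of 1396 Jurkat barcodes, which allows a share of up to 0.215%, and in 1 of 637. In 3′ v3 it was found in 31 of 1542, 5 of 291, 122 of 3038 and 25 of 882. In mouse barcodes, 8 of 2529 and 0 of 1193 held a KLRB1 UMI in 5′ v1, against 59 of 2997, 20 of 1223, 227 of 6927 and 87 of 2648 in 3′ v3. Within 5′ v1 both classes ran opposite ways, with 0 Jurkat and 24 mouse UMIs in replicate 1 and 3 and 0 in replicate 2. In 3′ v2 there were 6 UMIs in 288 Jurkat barcodes and 1 in 668 mouse barcodes. The part of background UMIs in the kit difference was not tested.

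In TALL-104 alone, levels in 3′ v3 were compared with those in 5′ v1. No member was called, where 4.35% of the 9018 tested genes were. The log2 difference was 0.04 ± 0.40 for KLRB1 (SE, edgeR adjusted p = 0.976), 0.07 ± 0.50 for NCAM1 (0.961), 0.63 ± 0.37 for NCR3 (0.332) and -0.34 ± 0.60 for CD244 (0.779). The sparse KLRC1 and KLRD1 gave 1.69 ± 0.75 (0.205) and -0.80 ± 0.88 (0.633), on 3 and 4 UMIs in 5′ v1. With 5′ v1 replicate 1 left out KLRD1 was at -1.89, on 3 UMIs, and no size is given for KLRC1, since the other 5′ v1 library had 0 UMIs. The standard errors were wide, and these p-values do not show that the kits gave like levels. The median over all tested genes was 0.11 with scaling factors and 0.01 without them, where the KLRB1 difference turned to -0.13.

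Within 3′ v3, KLRB1 and NCAM1 differed between preparations of the cell mixture, as did many other genes. The study's methods tables place replicates 1 and 3 in one preparation of the cell mixture and replicates 2 and 4 in another. Each preparation was read in 2 libraries, so p-values of this comparison measure only the spread between libraries, not the spread between preparations. The comparison was chosen after the values had been seen. It called 2 of the 6 tested members and 38.6% of all 9018 tested genes, so the members were called no more often than genes at large. KLRB1 was at 2122 and 2052 CPM in TALL-104 of replicates 1 and 3 and at 1161 and 1190 in replicates 2 and 4. NCAM1 went the other way, at 50.5 and 54.8 against 169 and 203. The pairs do not overlap for either gene, and within a pair replicates differed by little. The CPM pairs of NCR3, CD244 and KLRK1 do not overlap either, so this is not particular to KLRB1 and NCAM1. How often such pairs separate over all genes was not counted.

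In the fit, KLRB1 was lower in replicates 2 and 4, by a log2 difference of -1.13 ± 0.14 (SE, edgeR adjusted p = 7.56e-10), where 18.2% of tested genes were called lower. NCAM1 was higher by 1.53 ± 0.17 (adjusted p = 2.03e-11), where 20.3% were called higher. NCR3 differed by 0.24 ± 0.17 (adjusted p = 0.259), but by 0.54 (adjusted p = 0.00742) without scaling factors, which moved the median of all genes from 0.04 to 0.34. CD244 (0.35 ± 0.35), KLRC1 (0.04 ± 0.26) and KLRD1 (-0.22 ± 0.56) were not called.

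The depth and mitochondrial share of the TALL-104 barcodes also differed between the mixtures. Replicates 2 and 4 had a median mitochondrial share of 9.46% and 10.1% and a median of 2566.5 and 2236.5 human UMIs, against 8.34% and 5.54% and 1800 and 1804 UMIs in replicates 1 and 3. With at most 10% mitochondrial UMIs per barcode, KLRB1 was at -1.08 (edgeR adjusted p = 7.24e-07) and NCAM1 at 1.47 (adjusted p = 3.15e-07) in this comparison. TALL-104 barcodes also carried mouse UMIs unevenly, but these did not split by mixture alone. Over 95% human UMIs were found in 150 of 650 barcodes of replicate 1 and 3 of 1101 of replicate 3. In replicates 2 and 4 they were found in 237 of 244 and 147 of 610. The capture target was 3000 cells in replicates 1 and 2 and 6000 in replicates 3 and 4. The part of depth, capture target and mouse RNA in the differences of KLRB1 and NCAM1 was not tested.

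The comparison of kits depended on the mixture taken. Against 5′ v1, KLRB1 in TALL-104 was higher in replicates 1 and 3 alone (log2 difference 0.47, edgeR adjusted p = 0.0329) and lower in replicates 2 and 4 alone (-0.61, adjusted p = 1.95e-05). NCAM1 was lower in replicates 1 and 3 (-0.88, adjusted p = 0.0283) and higher in replicates 2 and 4 (0.72, adjusted p = 0.0208). NCR3 was higher in replicates 2 and 4 (0.72, adjusted p = 0.0460). Over all genes tested, 13.7% were called higher and 9.60% lower with replicates 1 and 3, and 22.5% and 18.7% with replicates 2 and 4. Each kit was run on mixtures of its own, so kit and mixture cannot be told apart.

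**Figure D4:**
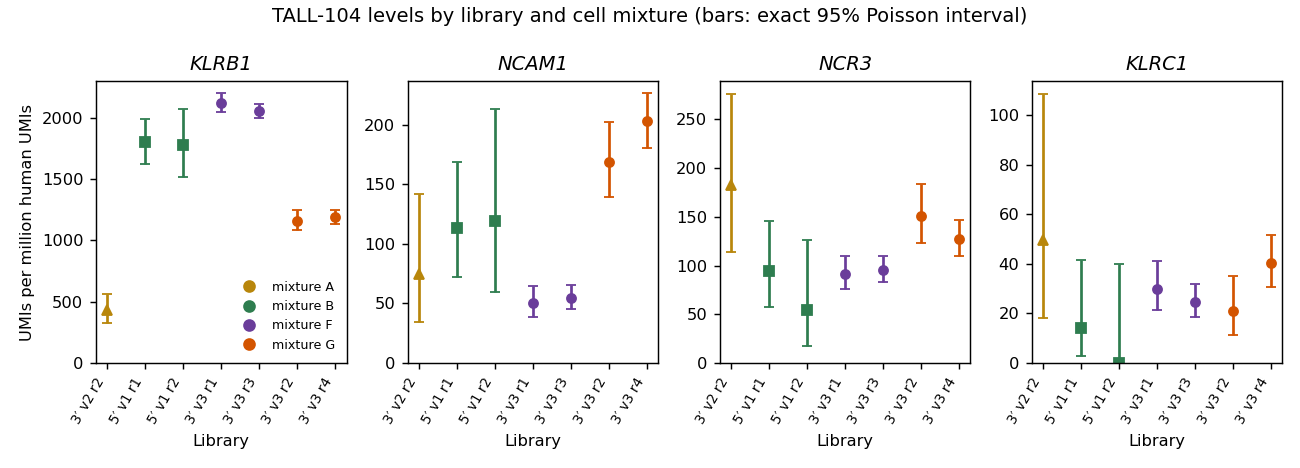
TALL-104 level (CPM, linear axis from 0) of KLRB1, NCAM1, NCR3 and KLRC1 in each library (r, replicate), with exact 95% Poisson intervals and colours for the cell mixture in the study's sample table. In 3′ v3, KLRB1 is higher and NCAM1 lower in replicates 1 and 3 than in replicates 2 and 4.

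The wider receptor system was described with lists by role, 57 measured genes that include the 8 members. Of these, 27 passed the filter, 18 were called higher in TALL-104, 3 lower and 6 neither, against 31.0% higher and 34.1% lower over all tested genes. Genes near 0 in Jurkat passed only through TALL-104, so neither these counts nor the medians of the lists are support for a direction. Lectin receptors of the NK gene complex had 2 tested genes of 11, both higher (KLRB1 and CD69, an early activation marker, at 2.95 ± 0.17 on the log2 scale). Of the 3 natural cytotoxicity receptors, NCR1 (NKp46) and NCR3 were tested and both were higher. NCR1 stood at 27.7 ± 8.13 CPM in TALL-104 (SD, n = 7) and had 3 UMIs in Jurkat. Immunoglobulin-type receptors had 4 tested genes of 16, of which LAIR1, CD96 and NCAM1 were higher. CD96, a receptor for PVR, reached 978 ± 313 CPM against 33.9 ± 14.8 in Jurkat. KIR3DL1 and KIR3DL3 were at 0 in both lines.

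The SLAM family was tested in full, with 5 of 7 higher, 1 lower and 1 neither (31.0% and 34.1% of all tested genes were higher and lower). SLAMF7 (log2 fold change 8.23 ± 0.27) and SLAMF1 (7.34 ± 0.33) had larger fitted gaps than CD244, on 43 and 35 Jurkat UMIs. SLAMF7 also had 115 UMIs in the 18185 mouse barcodes, beside its 43 in 8074 Jurkat barcodes. Its size is therefore not read as a ratio of expression. CD48, the ligand of CD244, was higher in TALL-104 too, at 399 ± 86.5 against 97.1 ± 60.5 CPM (SD, n = 7), a log2 fold change of 2.28 ± 0.19. CD84 was lower, by a log2 difference of -0.97 ± 0.18 (edgeR adjusted p = 4.04e-05). SH2D1A, the adaptor that couples CD244 to activation, was measured at 217 ± 60.3 against 188 ± 13.5 CPM and was not called (adjusted p = 0.127).

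Among adaptors and signal chains, 4 of 5 tested were higher, against the same 31.0% of all tested genes. TYROBP (DAP12) was at 68.5 ± 11.2 CPM in TALL-104 and 0.140 ± 0.122 in Jurkat, and FCER1G at 381 ± 93.8 and 0.788 ± 0.607 (SD, n = 7). HCST (DAP10), the partner of KLRK1, was at 798 ± 279 in TALL-104 and was also present in Jurkat at 56.2 ± 18.6, where KLRK1 had 0 UMIs. CD247, the zeta chain shared with the T cell receptor, differed least of the 4 (log2 fold change 0.74 ± 0.14).

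Of the 14 ligands 7 were tested, with 2 higher, 2 lower and 3 neither. This is near the shares over all tested genes, 31.0% higher and 34.1% lower. HLA-E, the ligand of KLRC1 with KLRD1 (log2 fold change 3.63 ± 0.19), and CLEC2D, the ligand of KLRB1 (4.29 ± 0.30), were higher in TALL-104. The ligands of NCR3 were lower: BAG6 had a log2 fold change of -0.58 ± 0.16 (edgeR adjusted p = 0.00335) and NCR3LG1 one of -2.88 ± 0.40 (adjusted p = 5.84e-07). MICA, MICB and ULBP2, ligands of KLRK1, were not called (adjusted p = 0.135, 0.476 and 0.105). ULBP1, another of its ligands, and RAET1E were too sparse for the filter. Both were called lower in TALL-104 in the fit without it, where 25.4% of all genes were called lower. The median log2 fold change of the tested genes was 2.83 for immunoglobulin-type receptors (4 of 16 tested) and 2.28 for the SLAM family. It was 3.88 for adaptors and -0.19 for ligands, against -0.05 over all tested genes. None is given for the lectin receptors, with 2 of 11 tested, since the size of KLRB1 is not read as a ratio of expression. Nor is one given for the cytotoxicity receptors, where the fitted value of NCR1 rests on 3 Jurkat UMIs.

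**Figure D5:**
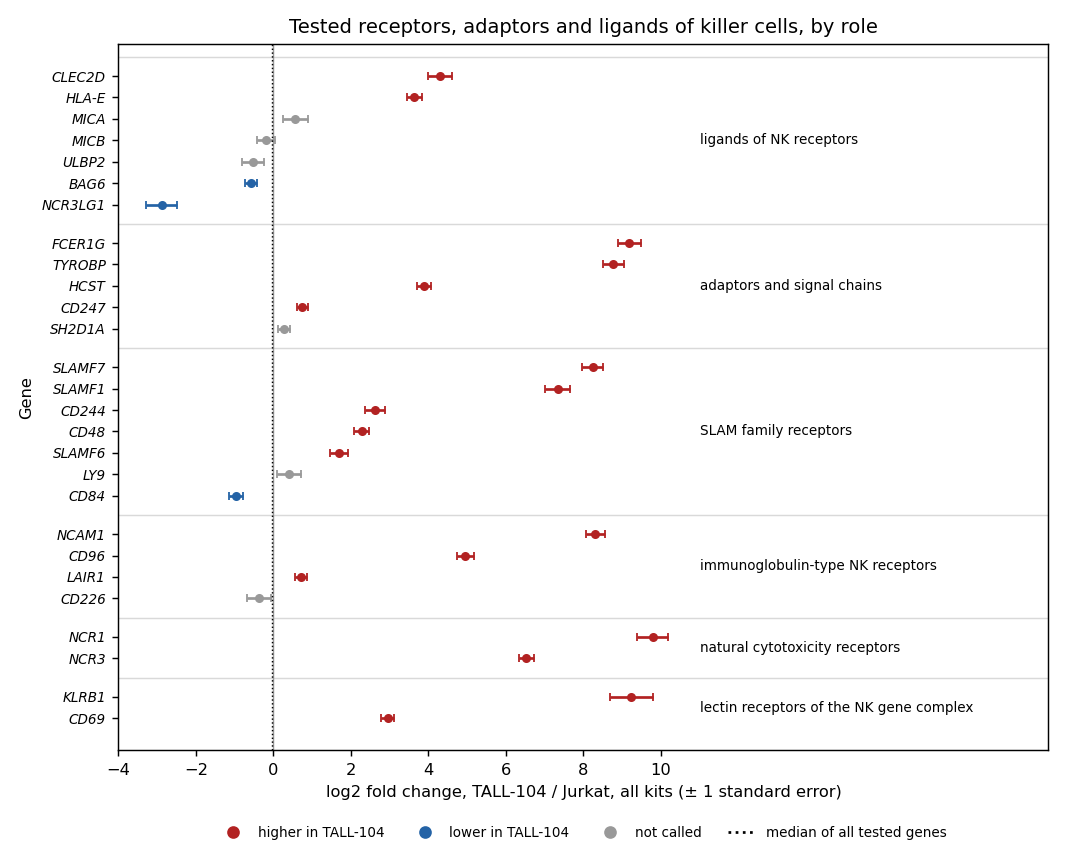
Log2 fold change of TALL-104 over Jurkat over all kits (points) with 1 standard error (bars) for the 27 tested genes of the 6 role lists, red for higher, blue for lower and grey for not called at an adjusted p under 0.05. Receptors and adaptors lie mainly to the right of the median of all tested genes (dotted, -0.05), and ligands lie on both sides. Genes near 0 in Jurkat passed the filter only through TALL-104, so these positions are no support for a direction.

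Genes with a pattern most like that of KLRB1 over the 14 sums of library and line, by Pearson correlation of log2(CPM + 1), were GPR171 (0.993), CCL5 (0.992), TC2N (0.991), YPEL3 (0.991) and CD37 (0.990). The points share their libraries and fall into 2 clusters, the lines, so these values describe the split between lines.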

How the data were processed

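Single-cell RNA-seq of a mixture of cell lines was analysed in 7 libraries. The files as deposited hold raw counts of UMIs for each barcode. The authors downsampled the reads of each library, by a factor taken from the depth of its RNA-rich cells, and counted them with Cell Ranger 3.0.2 (submitters' processing notes and the methods) against a combined hg19 and mm10 reference. All barcodes were kept and libraries were not pooled. Lines with less RNA keep fewer UMIs per cell. Here, UMIs were summed per library and line and tested with edgeR 4.0.16 (R 4.3.3), with TMM scaling, filterByExpr and Benjamini-Hochberg adjustment over all human genes kept. DESeq2 1.42.0 was an alternative. Doublets were not called. The fit was tested on simulated data. Library totals were 24790710 to 251164949 UMIs. Intervals and limits (3 counts for a sum of 0) cover counting error only. The 8 genes and the role lists were chosen with earlier results of these data known, and all 8 are named with values. Genes of a like pattern were the 5 highest correlations with the most abundant member. Alternatives were other scaling, filters, cell thresholds, tools and left-out libraries. Of the 3′ v2 kit, the library numbered 1 is not analysed. KIR3DL2 and KIR2DS4 were not matched to a single entry of the gene list and are left out. No annotation of hg19 was used, and overlaps between genes come from a RefSeq table of another build, so no positions are given. A marker list of another cell type is not reported here.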

Additional observations from a re-analysis of the deposited data

Results flagged for a closer look

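KLRB1 was flagged because its line difference differed between kits, with a log2 difference of -5.81 for 3′ v3 minus 5′ v1 (edgeR quasi-likelihood test, adjusted p = 0.00989). Its size rests on 3 Jurkat UMIs in 5′ v1. FCGR3A was flagged for a single 3′ v3 library apart from the other 3, at 1.49 CPM in TALL-104 and 0.0169 in Jurkat, each from 1 UMI. Of 15 groups looked at for a sample far from the others, chance would flag about 1 in 20, and a gene with 1 UMI in 1 of 4 libraries is flagged by that UMI alone. Human barcodes of neither line, which entered no fit, also held receptor UMIs, above the level in mouse barcodes per barcode. Over 1025 such barcodes there were 1637 UMIs of KLRB1, 103 of NCR3, 74 of NCAM1, 63 of CD244, 27 of KLRD1 and 25 of KLRC1.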

How the results depend on the processing

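Over all kits, the 4 tested members kept their direction and their call under every alternative that tested them. NCAM1, NCR3 and CD244 could not be tested with over 95% human UMIs, nor CD244 with stricter line shares, for lack of counts. The former left 3 to 237 TALL-104 barcodes in a library. The number of genes called was 6688, from 4639 to 9541 over the alternatives, and 5711 without the library block (kit as a covariate). The block, which pairs the lines of a library, changed no call of a member. Leaving out each library gave 1018 to 3337 calls within 5′ v1 (main 3104, lowest without replicate 1), 2 to 225 for the kit difference (main 126, with 2 calls without either 5′ v1 library), 8 to 611 for the TALL-104 level between kits (main 392) and 1471 to 2853 between the mixtures (main 3477, lowest without replicate 4). Without scaling factors the calls went from 65 higher and 61 lower to 22 and 109 for the kit difference, from 217 and 175 to 139 and 208 for the TALL-104 level, and from 1834 and 1643 to 2903 and 776 between mixtures. The TALL-104 level between kits had 2121 calls with only replicates 2 and 4 of 3′ v3 and 1088 with only replicates 1 and 3. There KLRB1 turned to -0.61 with replicates 2 and 4 and NCAM1 to -0.88 with replicates 1 and 3. KLRB1 turned to -0.13 without scaling factors. Leaving out a library moved KLRB1 from -0.20 to 0.22, NCAM1 from -0.30 to 0.28, KLRD1 from -1.89 to -0.71, NCR3 from 0.36 to 1.31 and CD244 from -0.67 to -0.05. Both ends for NCR3 and CD244, and the lower end for KLRD1, came from leaving out a 5′ v1 library. KLRC1 ran from 1.13 to 1.84, apart from the fit without 5′ v1 replicate 1, where the kit had 0 UMIs and the fitted value depends on the prior count. Between mixtures, KLRD1 turned to 0.073 without scaling factors, ran from -0.37 to 0.063 with a library left out and was -2.24 (edgeR adjusted p = 0.0973) with at most 10% mitochondrial UMIs, and KLRC1 from -0.63 to 0.29. The cause of these changes was not tested. Mean shares of TALL-104 cells with a UMI differed between depths. Thinning leaves out cells under the depth chosen, more of them at 2000 than at 1000, so depth and cells changed together. Thinned to 2000 human UMIs the shares were 77.9% for KLRB1, 21.4% for NCR3, 15.7% for NCAM1, 4.60% for KLRC1 and 3.51% for CD244, and unthinned they were 81.9%, 22.4%, 20.4%, 5.48% and 4.33%, with 0.946% for KLRK1. Over 3′ v3 alone, KLRB1 was at 84.1% thinned to 2000 and 84.0% unthinned, and KLRD1 over all libraries was at 1.53% thinned to 1000, 0.769% to 2000 and 2.40% unthinned. TALL-104 barcodes held 6102333 human UMIs in all, which limits the sparse members.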

Other observations

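Receptors of the role lists that were too sparse for the filter also held counts in TALL-104. NCR2 (NKp44) had 53 UMIs in TALL-104 and 27 in Jurkat, or 15.0 ± 17.6 and 0.208 ± 0.118 CPM (SD, n = 7 libraries). Of the 53, 11 came from 5′ v1 replicate 1, where it reached 51.9 CPM. The killer immunoglobulin-like receptor KIR2DL3 had 47 UMIs in TALL-104, of which 46 were in the 3′ v3 libraries, and 4 in Jurkat. These made 4.84 ± 3.93 and 0.0169 ± 0.0378 CPM. KLRG1, an inhibitory lectin receptor that binds cadherins, had 22 UMIs in TALL-104 and 541 in Jurkat, at 6.88 ± 8.28 and 3.43 ± 1.01 CPM (SD, n = 7 libraries). Its TALL-104 values ran from 0 to 21.7 CPM, around the Jurkat values of 2.06 to 5.04, so the higher mean shows no direction. Of the sparse ligands, RAET1E had 2 UMIs in TALL-104 and 656 in Jurkat, or 0.159 ± 0.280 and 5.17 ± 2.73 CPM. ULBP1 had 5 and 485, or 1.88 ± 3.97 and 4.71 ± 3.14 CPM. Its highest TALL-104 library (10.8 CPM) was above its highest Jurkat library (9.73). That TALL-104 value is a single UMI among the 92258 human UMIs of 5′ v1 replicate 2. In the edgeR fit without a filter, 16.8% of all 22603 genes were called higher and 25.4% lower. NCR2 (adjusted p = 1.56e-23) and KIR2DL3 (adjusted p = 1.38e-20) were called higher in TALL-104, RAET1E (adjusted p = 8.05e-10) and ULBP1 (adjusted p = 2.02e-05) were called lower, and KLRG1 was not called (adjusted p = 0.952). These genes were named after their values had been seen.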
